A study of Rattus norvegicus with 9 samples.

Results

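The proteasome is the protease complex that degrades proteins tagged with ubiquitin, and the genes that encode its parts are the subject here. They were taken as the probe sets of the array whose annotated symbol starts with Psma, Psmb, Psmc, Psmd, Psme or Psmf followed by a digit, with 1 probe set per gene, the one with the highest mean log2 value over the 9 arrays. This gave 42 genes of the 14217 genes that the annotation named with 1 symbol, measured by 56 probe sets, since 9 of the genes had several. The letters of the symbol also brought in Psmc3ip, which encodes a partner protein in meiotic recombination, and Psme3ip1, which encodes a protein that binds an activator of the proteasome. These 2 are no subunits, and they are counted with the 42 and left out of the 40 where that is said. A further 6 probe sets listed a symbol of this kind together with other symbols, so that Psmb6 and Psme3 had no probe set of their own and are not described.

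RNA of isolated pancreatic islets was hybridised to Affymetrix GeneChip Rat Genome 230 2.0 arrays, 3 for each of 3 groups, labelled as biological replicates. All rats were male Zucker Diabetic Fatty animals of the genotype fa/fa, a defect of the leptin receptor that leads to obesity and diabetes; no lean rats were compared, and all ate the Purina 5008 diet. From 24 rats bought at 5 weeks of age and randomized, treated rats ate rosiglitazone, an insulin sensitizer that activates PPAR gamma, as powdered tablets mixed into the food (3 mg/kg body weight) from week 5 to week 9, and were sampled at 9 weeks. Withdrawal rats received the same course and were sampled at 11 weeks, 2 weeks after it ended, and untreated controls never received the drug and were sampled at 13 weeks. Each group therefore has its own age, and treatment and age cannot be told apart in any comparison. In bulk islet RNA a fall in a transcript through fewer cells of a type cannot be told apart from less RNA per cell.

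The proteasome consists of a barrel-shaped core particle, built of rings of alpha and beta subunits, and of a regulatory particle that caps it, recognises ubiquitin chains and unfolds the substrate with a ring of ATPases. Cells exposed to interferon gamma replace the catalytic beta subunits Psmb5, Psmb6 and Psmb7 by Psmb8, Psmb9 and Psmb10, which forms the immunoproteasome used to make peptides for antigen presentation. The transcription factor encoded by Nfe2l1 raises the subunit genes together when proteasome capacity is short. In islets the beta cell is known for its heavy load of proinsulin made in the endoplasmic reticulum, and misfolded copies are drawn out of that compartment and handed to the proteasome.

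The values are the deposited log2 values, and a difference is a log2 difference between group means, the first group minus the second. The arrays differed in how far they spread: the SD over all probe sets ran from 1.649 to 1.997, while the array medians stayed between 5.736 and 5.806. The first treated array was the widest and the second withdrawal array the narrowest. Every treated array, at 1.836 to 1.997, was wider than every other array, at 1.649 to 1.770. The spread of the arrays and the treatment therefore cannot be told apart. On a wider array bright probe sets have higher values, and the proteasome probe sets are bright: 18 of the 42 lie in the brightest decile of the probe sets tested and a further 13 in the decile below it. Brightness here belongs to the probe set and is no measure of how much RNA of a gene there is. Most results are therefore given as deposited and again after quantile normalization, which gives all arrays the same distribution. None of the 42 genes was lost to the filter on dim probe sets. Markers of beta cells and of acinar cells, the enzyme-making cells of the exocrine pancreas, were both bright on all arrays. As deposited, the mean log2 value over 7 measured beta cell markers was 11.88 to 12.04 in treated, 11.15 to 11.36 in withdrawal and 11.35 to 11.64 in untreated islets. That over 9 acinar markers was 13.87 to 13.98, 13.81 to 13.95 and 13.84 to 13.96. After quantile normalization the beta cell means were 11.65 to 11.74, 11.37 to 11.42 and 11.57 to 11.65 in the same order. The acinar means were then 13.84 to 13.93, 13.89 to 13.92 and 13.89 to 13.92.

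Promoter letters are shown for members on which the results turn, from RefSeq promoter windows of build GRCr8 that run from 250 bases before to 50 after the gene's start. Of the 42 genes, 38 had such a window. Each is given 5′ to 3′ on the gene's strand as 90 bases, with a match of 1 of 5 motifs in capitals. Psmd1 (chr9:94157781-94157870, plus strand) and Psmb5 (chr15:32047380-32047469, minus strand) hold the letters TGACNNNGC, a core of the antioxidant response element, the site type bound by the factor from Nfe2l1. Psmd4 (chr2:185297202-185297291, minus strand) holds a CCAAT box read on the other strand. Psmb10 (chr19:50743293-50743382, minus strand) and Psme2 (chr15:33052752-33052841, minus strand) hold GAAANNGAA, the core of the interferon-stimulated response element.
Psmd1: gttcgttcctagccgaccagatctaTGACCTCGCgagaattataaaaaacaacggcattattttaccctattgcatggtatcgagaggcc
Psmb5: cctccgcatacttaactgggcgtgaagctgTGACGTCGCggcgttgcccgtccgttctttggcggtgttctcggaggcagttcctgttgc
Psmd4: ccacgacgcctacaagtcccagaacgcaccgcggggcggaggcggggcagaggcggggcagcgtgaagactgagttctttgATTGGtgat
Psmb10: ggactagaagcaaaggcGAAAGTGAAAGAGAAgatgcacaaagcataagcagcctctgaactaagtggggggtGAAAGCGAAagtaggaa
Psme2: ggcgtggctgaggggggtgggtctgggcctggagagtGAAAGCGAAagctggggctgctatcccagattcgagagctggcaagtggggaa

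The match in Psmd1 begins at −165 from the start and that in Psmb5 at −60. In Psmb10 the first capital run is 2 overlapping matches, and the other begins at −17. In Psmd4 the match begins at −9 and in Psme2 at −53. Over both strands, TGACNNNGC was found in 7 of the 38 windows (18.4%), against 12.1% of all 33469 windows of this length, in which some genes appear more than once. The second form of that core, TGAGNNNGC, was found in 9 (23.7%, against 17.2%), and either form in 15 (39.5%, against 27.1%). GAAANNGAA was in 8 windows (21.1%, against 9.71%), namely those of Psma4, Psmb2, Psmb3, Psmb8, Psmb10, Psmd7, Psmd11 and Psme2. The gamma-activated site TTCNNNGAA was in 4 (10.5%, against 8.87%) and CCAAT in 21 (55.3%, against 37.5%). These are counts of letters in a window, not of sites that are bound.

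In islets of treated rats 23 of the 42 genes were higher than in untreated islets and 0 were lower, by limma with Benjamini-Hochberg adjusted p under 0.05 over all probe sets tested. The median difference was 0.55, against 0.15 over all probe sets tested, of which 20.9% were higher. After quantile normalization 2 of the 42 were higher, Psmd1 and Psmd4, and 0 lower, with 7.75% of all probe sets higher, and the median fell to 0.11 against 0.02 over all. At an unadjusted p under 0.05, 5 were then higher and 1 lower, and the share over all probe sets at that threshold was not counted. As deposited, a fit on only the 6 arrays compared called 5 of the 42 as higher, near the share over all probe sets, 11.5%. As deposited, the 3 treated values lay above the 3 untreated values without overlap for 31 of the 42, and 31.2% of all probe sets did so. The count of these genes called higher in treated islets thus depended on the scaling and on which arrays entered the fit.

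The brightness of the probe sets goes with the difference as deposited. In the brightest decile, 54.5% of all probe sets were higher in treated islets, with a median difference of 0.53. There 13 of the 18 members rose, with a median of 0.64. In the next decile 39.1% of all were higher, with a median of 0.38, and 7 of the 13 members rose, with a median of 0.57. In the decile after that, 28.6% of all were higher, with a median of 0.27, and 3 of the 5 members rose, with a median of 0.48. The members thus sat near the background of equally bright probe sets at the top and above its median in the next deciles.

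**Figure D1:**
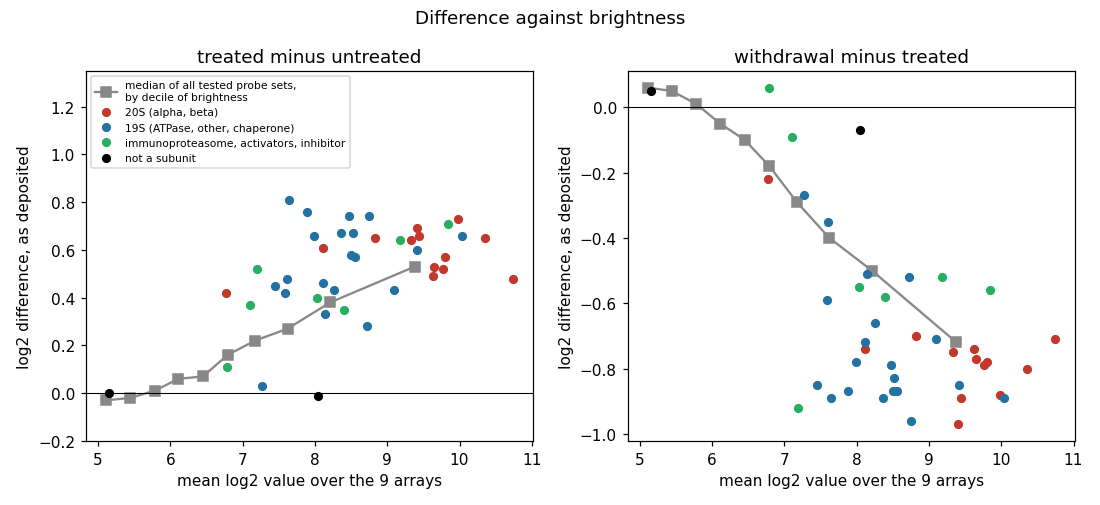
Log2 difference as deposited (vertical axis) against the mean log2 value over the 9 arrays (horizontal axis) for the 42 members, coloured by role (20S is the core particle and 19S the regulatory particle). Grey squares are the medians of all tested probe sets in deciles of brightness; they climb to 0.53 for treated minus untreated and fall to −0.72 for withdrawal minus treated, and most members lie above that line in the first comparison and below it in the other.

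By role, the median difference between treated and untreated islets was 0.64 for the 7 alpha ring subunits, of which 5 rose, and 0.55 for the 6 beta ring subunits, of which 5 rose. It was 0.62 for the 6 ATPases (3 rose), 0.57 for the 11 other subunits of the regulatory particle (5 rose) and 0.48 for the 3 chaperones that assemble it (2 rose). For the 3 immunoproteasome subunits it was 0.37, and 1 rose. After quantile normalization the medians were 0.15, −0.02, 0.12, 0.13, 0.21 and 0.08 in the same order. The beta ring thus had a median near 0 on that scale, while the alpha ring and the regulatory particle kept a small positive one.

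**Figure D2:**
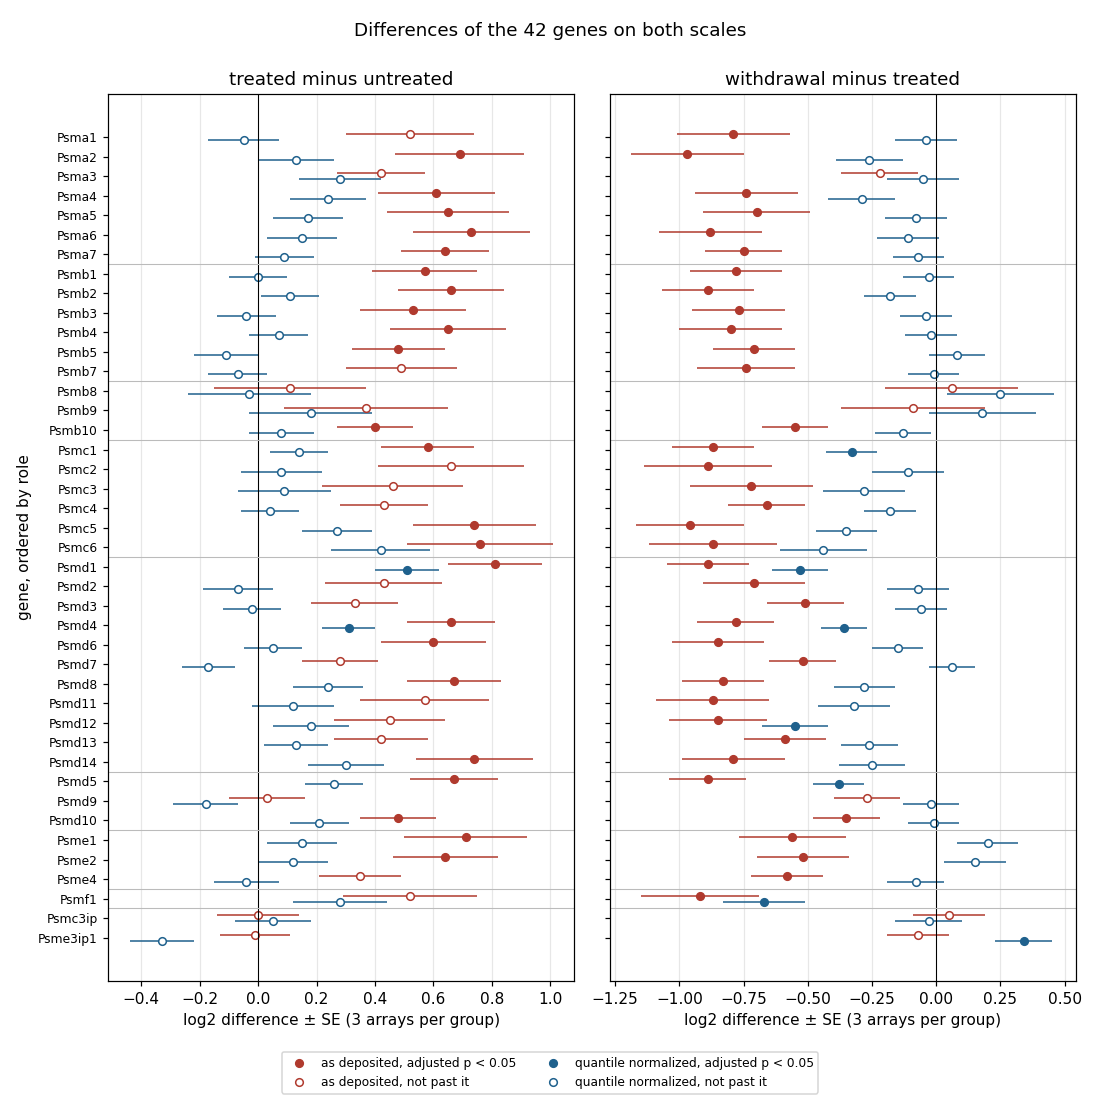
Log2 differences of the members by role for the comparisons between groups, as deposited and after quantile normalization, with filled points for members past the adjusted p threshold. As deposited 23 members rose in treated islets and 36 fell after withdrawal; after quantile normalization 2 rose in the first comparison, and 6 fell and 1 rose in the other.

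Psmd1 encodes the largest scaffold subunit of the regulatory particle, and its promoter letters are the first of those above. Its log2 values were 8.56, 8.01 and 8.05 on the treated arrays, 7.38, 7.20 and 7.36 on the withdrawal arrays and 7.42, 7.25 and 7.51 on the untreated arrays. All 3 treated values lay above the other 6. The means ± SD were 8.20 ± 0.31, 7.32 ± 0.10 and 7.39 ± 0.13 (n = 3 each). Treated exceeded untreated islets by 0.81 ± 0.16 (SE; limma adjusted p = 0.0052), and by 0.51 after quantile normalization (adjusted p = 0.0103). It passed in all 9 fits that left out 1 array, on either scale.

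Psmd4 encodes a receptor for ubiquitin chains in the regulatory particle. Its values were 8.74, 8.35 and 8.31 in treated, 7.63, 7.64 and 7.78 in withdrawal and 7.91, 7.62 and 7.89 in untreated islets, again with no treated value among the rest. The difference between treated and untreated islets was 0.66 ± 0.15 (adjusted p = 0.0088), and 0.31 after quantile normalization (adjusted p = 0.0424). As deposited it passed in all 9 fits that left out 1 array; after quantile normalization it passed in 0 of them, with adjusted p up to 0.143.

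The other members with the largest rises in treated islets as deposited were Psmc6 and Psmc5, ATPases of the regulatory particle, Psmd14, the enzyme that cuts ubiquitin chains off the substrate, and Psma6 of the alpha ring. The values of Psmc6 were 9.12, 7.98 and 8.18 in treated, 7.47, 7.49 and 7.72 in withdrawal and 7.83, 7.38 and 7.78 in untreated islets. The first treated array held the highest value by far, and the difference from untreated islets was 0.76 ± 0.25 (limma adjusted p = 0.0395), called in 3 of the 9 fits that left out 1 array. Psmc5 differed by 0.74 ± 0.21 (adjusted p = 0.0222), Psmd14 by 0.74 ± 0.20 (adjusted p = 0.0197) and Psma6 by 0.73 ± 0.20 (adjusted p = 0.023). After quantile normalization these 4 differences were 0.42, 0.27, 0.30 and 0.15, and no one of them passed, with adjusted p of 0.107, 0.153, 0.115 and 0.397. Another tested probe set of Psmc6, dimmer, differed by 0.45 as deposited (limma adjusted p = 0.126). The other, dimmer probe sets of Psmd14 differed by 0.85 (adjusted p = 0.0278) and 0.28 (adjusted p = 0.375). Between withdrawal and treated islets those of Psmd14 differed by −0.76 and 0.07.

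After withdrawal of the drug 36 of the 42 genes were lower than in treated islets and 0 higher, with a median difference of −0.75, against −0.19 over all probe sets, of which 32.6% were lower. After quantile normalization 6 were lower and 1 higher, with 14.6% of all probe sets lower, and the median was −0.10 against −0.03 over all. The 3 withdrawal values lay below the 3 treated values without overlap for 36 of the 42, and 39% of all probe sets did so. This comparison uses the same treated arrays as the one above. The 6 that did not pass as deposited were Psma3, Psmb8, Psmb9, Psmd9 and the non-subunits Psmc3ip and Psme3ip1. In the brightest decile 78.7% of all probe sets were lower, with a median of −0.72, and all 18 members there were lower, with a median of −0.78; after quantile normalization the members' median there was −0.05 and that of all probe sets −0.04. In the next decile 58.6% of all were lower (median −0.50), and 12 of 13 members were (median −0.74); after quantile normalization the members' median there was −0.28, against −0.04 for all probe sets of that brightness.

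After quantile normalization the roles separated more here than in the comparison with untreated islets. As deposited, all 6 ATPases and all 11 other subunits of the regulatory particle fell, with medians of −0.87 and −0.79. After quantile normalization their medians were −0.30 and −0.26. In the core particle 6 of 7 alpha subunits and 6 of 6 beta subunits fell, with medians of −0.75 and −0.78, which shrank to −0.08 and −0.02 after quantile normalization. On that scale 6 of the 42 fell, near the share over all probe sets, 14.6%. They were 4 of these regulatory particle subunits (Psmd1, Psmd4, Psmd12 and Psmc1), the assembly chaperone Psmd5 and the inhibitor Psmf1. None was a core particle subunit. The roles also differed in brightness. Mean log2 values ran from 9.44 to 10.74 in the beta ring and 6.77 to 9.98 in the alpha ring. They ran from 7.88 to 10.03 in the ATPases and 7.45 to 9.41 in the 11 other subunits of the regulatory particle. The difference between the roles was not tested.

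Psmd1 fell by 0.89 from treated to withdrawal islets (SE 0.16, limma adjusted p = 0.00179). After quantile normalization its difference was −0.53 (adjusted p = 0.00568), passing in all 9 fits that left out 1 array. Psmf1 encodes an inhibitor of the proteasome. Its values were 8.35, 7.31 and 7.35 in treated, 6.72, 6.64 and 6.89 in withdrawal and 7.21, 7.02 and 7.22 in untreated islets. The withdrawal values lay below all others, and the first treated array again held the highest value. The difference was −0.92 ± 0.23 (adjusted p = 0.00836), and −0.67 after quantile normalization (adjusted p = 0.0132, passing in 8 of the 9 fits). From treated to untreated islets Psmf1 differed by 0.52 ± 0.23, which did not pass (adjusted p = 0.109).

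Further members with the largest falls as deposited were Psma2 of the alpha ring and the ATPases Psmc5 and Psmc2. The values of Psma2 were 10.47, 9.56 and 9.85 in treated, 8.93, 8.87 and 9.16 in withdrawal and 9.21, 9.03 and 9.57 in untreated islets. It differed by −0.97 ± 0.22 between withdrawal and treated islets (limma adjusted p = 0.00471), and by −0.26 after quantile normalization (adjusted p = 0.133). Psmc5 differed by −0.96 ± 0.21 (adjusted p = 0.00398), and by −0.35 after quantile normalization, just outside the threshold (adjusted p = 0.0503). Psmc2 differed by −0.89 ± 0.25 (adjusted p = 0.0132), and by −0.11 after quantile normalization (adjusted p = 0.565).

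The remaining members that passed on both scales are named here after their values were seen. Psmd12, a subunit of the lid of the regulatory particle, had values of 8.37, 7.60 and 7.69 in treated, 7.0, 6.96 and 7.15 in withdrawal and 7.59, 7.21 and 7.50 in untreated islets, and its withdrawal values were the lowest 3 of the 9. After quantile normalization it differed by −0.55 between withdrawal and treated islets (limma adjusted p = 0.0115), passing in 8 of 9 fits that left out 1 array. On that scale Psmd4 differed by −0.36 (adjusted p = 0.0173, 7 of 9 fits), Psmd5 by −0.38 (adjusted p = 0.0192, 6 of 9) and Psmc1 by −0.33 (adjusted p = 0.0272, 4 of 9). The 1 member that rose there was the non-subunit Psme3ip1, by 0.34 (adjusted p = 0.0404, 1 of 9 fits), which as deposited differed by −0.07.

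**Figure D3:**
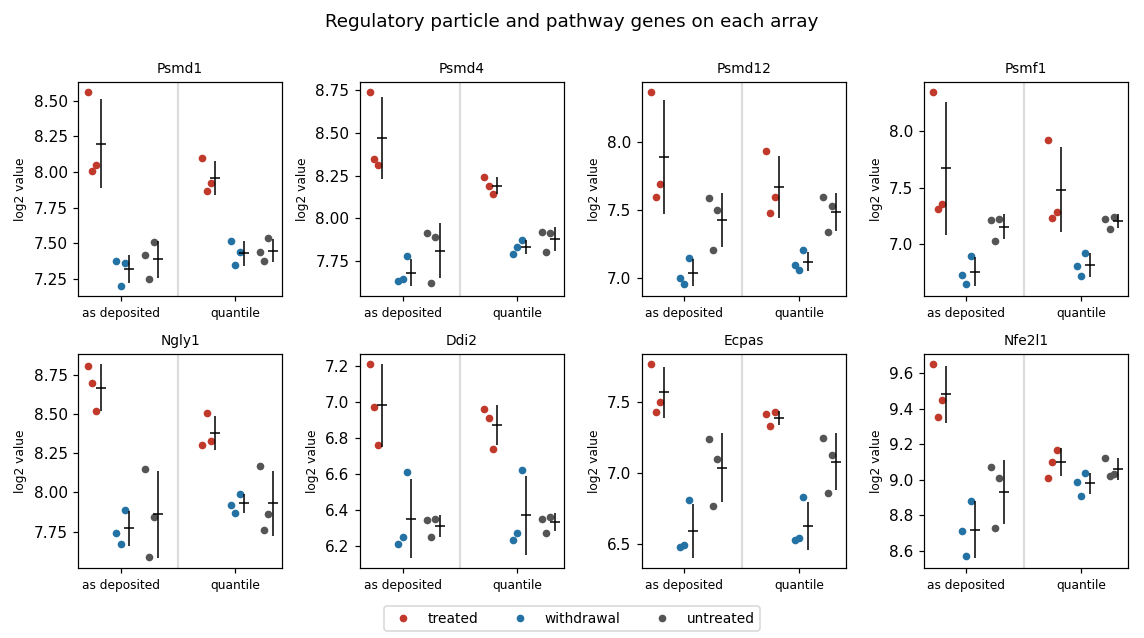
Log2 values on each array of Psmd1, Psmd4, Psmd12 and Psmf1 and of the pathway genes Ngly1, Ddi2, Ecpas and Nfe2l1, as deposited and after quantile normalization, with the group mean ± SD (n = 3) beside the points. The treated values of Psmd1 lie above all others on both scales (8.01 to 8.56 as deposited), while those of Nfe2l1 do so only as deposited.

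The constitutive catalytic subunits differed from these. Psmb5 carries the chymotrypsin-like activity of the core. Its values were 11.49, 10.86 and 11.05 in treated, 10.36, 10.36 and 10.56 in withdrawal and 10.68, 10.61 and 10.68 in untreated islets, so the groups did not overlap. As deposited Psmb5 rose by 0.48 ± 0.16 in treated islets (limma adjusted p = 0.0404, called in 1 of the 9 fits that left out 1 array) and differed by −0.71 ± 0.16 after withdrawal (adjusted p = 0.00457). After quantile normalization the signs turned, to −0.11 (adjusted p = 0.541) and 0.08 (adjusted p = 0.62). Its 2 other, dimmer probe sets differed by 0.05 and −0.01 between treated and untreated islets as deposited. Psmb7, the trypsin-like subunit, had values of 10.44, 9.78 and 9.89 in treated, 9.25, 9.16 and 9.49 in withdrawal and 9.59, 9.27 and 9.79 in untreated islets. Treated differed from untreated islets by 0.49 ± 0.19 (adjusted p = 0.0727) and withdrawal from treated islets by −0.74 ± 0.19 (adjusted p = 0.00922). After quantile normalization these were −0.07 and −0.01.

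The immunoproteasome subunits Psmb8 and Psmb9 passed in no comparison on either scale with all 9 arrays. Psmb8 had values of 7.52, 6.17 and 6.71 in treated, 6.85, 6.80 and 6.95 in withdrawal and 6.66, 6.54 and 6.88 in untreated islets. The treated arrays held both the highest and the lowest of the 9 values, with a group SD of 0.68 against 0.08 in withdrawal islets. Psmb9 had values of 8.08, 6.71 and 6.98 in treated, 7.09, 7.12 and 7.29 in withdrawal and 7.05, 6.60 and 7.0 in untreated islets, with the same treated array on top. Treated and untreated islets differed by 0.11 ± 0.26 for Psmb8 (limma adjusted p = 0.769) and 0.37 ± 0.28 for Psmb9 (adjusted p = 0.328). Withdrawal and treated islets differed by 0.06 ± 0.26 (adjusted p = 0.856) and −0.09 ± 0.28 (adjusted p = 0.822). These errors are wider than that of Psmb5, 0.16 in either comparison. Without the first treated array, Psmb8 was higher in withdrawal than in treated islets by 0.42 as deposited (limma adjusted p = 0.0377), while Psmb9 differed by 0.33 and did not pass (adjusted p = 0.0887). After quantile normalization of the other 8 arrays both passed, with 0.49 and 0.46.

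Psmb10, the third subunit of that kind, had values of 8.39, 8.45 and 8.20 in treated, 7.75, 7.79 and 7.84 in withdrawal and 7.99, 7.74 and 8.09 in untreated islets. Here the treated arrays stood together above all others. It rose by 0.40 ± 0.13 in treated islets (limma adjusted p = 0.0374, called in 3 of the 9 fits that left out 1 array) and differed by −0.55 ± 0.13 after withdrawal (adjusted p = 0.00611). After quantile normalization these were 0.08 (adjusted p = 0.663) and −0.13 (adjusted p = 0.393).

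The first treated array, the one highest in Psmb8 and Psmb9, also had the highest mean over 10 macrophage markers as deposited, 8.16. The other treated arrays had 6.69 and 7.32. In withdrawal islets that mean ran from 7.65 to 7.88 and in untreated islets from 7.22 to 7.39. After quantile normalization the first treated array had 7.79, below the withdrawal arrays at 7.83, 7.93 and 7.96. Its Psmb8 and Psmb9 values on that scale, 7.21 and 7.68, were still the highest. Of the 8 macrophage markers tested, 1 rose from treated to withdrawal islets as deposited and 4 after quantile normalization. Over all probe sets 11.2% and 14.5% were higher there. The mean over 9 lymphocyte markers as deposited ran from 5.27 to 5.51 in treated, 5.76 to 5.92 in withdrawal and 5.64 to 5.75 in untreated islets. After quantile normalization it ran from 5.27 to 5.53, 5.75 to 5.93 and 5.65 to 5.76 in the same order. Of the 8 lymphocyte markers tested, 4 fell in treated relative to untreated islets and 4 rose after withdrawal, on either scale. Over all probe sets 7.24% were lower and 11.2% higher as deposited, and 9.44% and 14.5% after quantile normalization. The mean over 8 genes of the interferon response as deposited was 7.13, 6.68 and 6.81 in treated, 6.76 to 7.0 in withdrawal and 7.0 to 7.14 in untreated islets. After quantile normalization it was 6.94, 6.61 and 6.77 in treated, 6.85 to 7.02 in withdrawal and 7.0 to 7.25 in untreated islets. All treated means then lay below the untreated ones. Of the 7 of these genes tested, 3 fell in treated relative to untreated islets as deposited and 4 after quantile normalization. Over all probe sets 7.24% and 9.44% were lower. The part of these cells and of this response in the subunit values was not tested.

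Within an array, the log2 value of Psmb8 minus that of Psmb5, which it replaces in the core, was −4.33 ± 0.36 in treated, −3.56 ± 0.06 in withdrawal and −3.96 ± 0.14 in untreated islets (SD, n = 3). Such a difference between probe sets has no meaning as a ratio of RNA amounts and only shows whether both moved alike. It was 0.77 higher in withdrawal than in treated islets and 0.40 higher than in untreated islets, without overlap, and each exact permutation test gave p = 0.1, the smallest that 3 arrays against 3 allow (2-sided; 0.3 after adjustment over 6 tests). After quantile normalization the same differences were 0.17 and 0.24, with exact permutation p of 0.6 and 0.3. Psmb10 minus Psmb7 was −1.69 ± 0.37, −1.50 ± 0.14 and −1.61 ± 0.09, and its largest difference between groups, 0.19, gave an exact permutation p of 0.5.

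**Figure D4:**
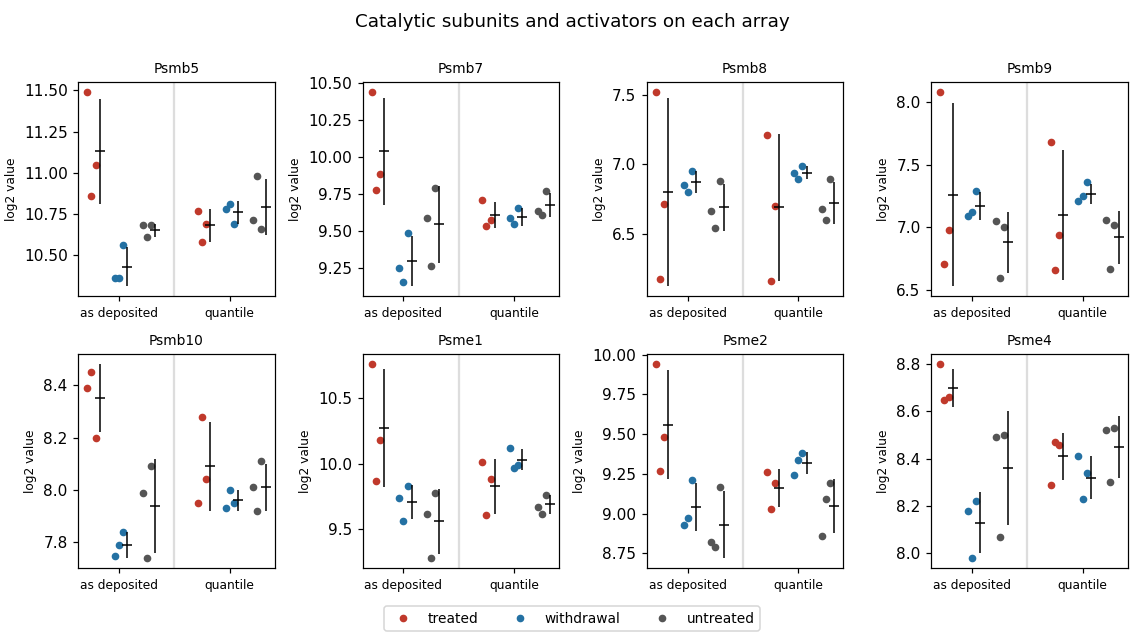
Log2 values on each array of the catalytic subunits Psmb5, Psmb7, Psmb8, Psmb9 and Psmb10 and the activators Psme1, Psme2 and Psme4, as deposited and after quantile normalization, with the group mean ± SD (n = 3) beside the points; each panel has its own vertical axis. For Psmb5 the treated values (10.86 to 11.49) lie above all others as deposited and among them after quantile normalization, and for Psmb8 the treated values span 6.17 to 7.52.

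Psme1 and Psme2 encode the subunits of the activator that interferon gamma induces, which opens the core without ubiquitin. Psme1 had values of 10.76, 9.87 and 10.18 in treated, 9.74, 9.56 and 9.83 in withdrawal and 9.62, 9.28 and 9.78 in untreated islets. Psme2 had 9.94, 9.27 and 9.48 in treated, 8.93, 8.97 and 9.21 in withdrawal and 8.82, 8.79 and 9.17 in untreated islets. For both genes all treated values lay above all others. The other probe set of Psme1, dimmer, differed by −0.09 between treated and untreated islets and by 0.29 between withdrawal and treated islets as deposited, and neither passed. The chosen probe sets of Psme1 and Psme2 rose by 0.71 ± 0.21 (limma adjusted p = 0.0269) and 0.64 ± 0.18 (adjusted p = 0.023) in treated islets. After withdrawal they differed by −0.56 ± 0.21 (adjusted p = 0.0458) and −0.52 ± 0.18 (adjusted p = 0.0322). The fall of Psme1 passed in 2 of the 9 fits that left out 1 array and that of Psme2 in 6. After quantile normalization withdrawal islets had the highest means instead, and the differences from treated islets were 0.20 (adjusted p = 0.222) and 0.15 (adjusted p = 0.33).

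Psme4 encodes an activator found mainly in the nucleus. Its values were 8.80, 8.65 and 8.66 in treated, 8.18, 7.98 and 8.22 in withdrawal and 8.49, 8.07 and 8.50 in untreated islets. The rise in treated islets, 0.35 ± 0.14, did not pass (limma adjusted p = 0.0856), and the fall after withdrawal did (−0.58 ± 0.14, adjusted p = 0.00771). After quantile normalization these were −0.04 and −0.08. Its other, dimmer probe sets differed by 0.17 and 0.23 between treated and untreated islets as deposited, and neither passed. Between withdrawal and treated islets they differed by −0.52 (limma adjusted p = 0.00825) and −0.31 (adjusted p = 0.12).

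Between withdrawal and untreated islets 0 of the 42 genes passed by limma, as deposited or after quantile normalization, and the smallest adjusted p was 0.7 and 0.309. Over all probe sets 0.155% and 0.387% were lower on these scales. At an unadjusted p under 0.05 the count was also 0 as deposited, and 2 higher and 2 lower after quantile normalization. How many of all probe sets passed that threshold was not counted. With array weights, limma called 13 of the 42 as deposited, all lower in withdrawal islets, and 12.1% of all probe sets were lower in that fit. The median difference was −0.20 as deposited, against −0.02 over all probe sets, and −0.05 after quantile normalization. As deposited, 8 members were lower in withdrawal islets without overlap (Psma7, Psmb5, Psmc4, Psmd7, Psmd9, Psmd12, Psmd13 and Psmf1), and 10.3% of all probe sets were. Psmb9 was the 1 member higher without overlap, and how many of all probe sets were so was not counted. Psmd12 and Psmf1 differed most, each by −0.40 (adjusted p = 0.7 and 0.773). Psme1 and Psmb9 were at the other end, at 0.15 ± 0.21 and 0.29 ± 0.28, or 0.35 and 0.36 after quantile normalization (adjusted p = 0.309 and 0.615). A p that misses the threshold does not show that the groups were alike.

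For 30 of the 42 members, all 3 treated values lay above the other 6 as deposited, and 27.7% of all probe sets did so. After quantile normalization this held for 3 members, Psmd1, Psmd4 and Psmd5, and for 13.6% of all probe sets. The first treated array was the highest of the 9 for 39 members as deposited and for 24 after quantile normalization. Among the 40 genes without the 2 non-subunits, Pearson's r over the 9 arrays had a median of 0.94 over 780 pairs as deposited (range 0.02 to 1.0) and 0.36 after quantile normalization (range −0.73 to 0.97). These pairs share the arrays and their spread. Over all pairs of probe sets within the brightest decile the median r was 0.84 as deposited and 0.01 after quantile normalization, and within the next decile 0.63 and 0.01. Without the first treated array, 16 members rose in treated islets as deposited (20.4% of all probe sets), and after withdrawal 33 fell and 1 rose, Psmb8 (31.9% of all probe sets fell). The count of members that rose fell further without some other arrays, and so did the share over all probe sets. Without the second untreated array 3 members rose (7.07% of all probe sets were higher), and without the first untreated array 8 (13.9%). Without the first withdrawal array 14 rose (16.7%), and 14 without the second (16.5%). Of the 14 probe sets of members not chosen, 12 were tested, and 3 of them rose in treated islets and 4 fell after withdrawal. Both counts are near the shares over all probe sets, 20.9% higher and 32.6% lower.

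A list of 37 other genes of the pathway, of which 30 were tested, was read beside the members. In treated islets 15 of the 30 rose and 0 fell relative to untreated islets, with a median difference of 0.50, against 20.9% and 0.15 over all probe sets. Many of these genes have bright probe sets, and the list was not set against probe sets of equal brightness. In the brightest decile 54.5% of all probe sets were higher in treated islets, and in the next 39.1%. After quantile normalization 4 rose (Ngly1, Ddi2, Ube2g2 and Psmg1) and 1 fell (Uba6), with a median of 0.08, against 7.75% higher and 0.02 over all. After withdrawal 24 fell and 0 rose, with a median of −0.73, against 32.6% lower and −0.19 over all. In the brightest decile 78.7% of all probe sets were lower, and in the next 58.6%. After quantile normalization 7 fell (Ecpas, Ddi2, Ngly1, Vcp, Ufd1, Nploc4 and Ube2g2) and Uba6 rose, with a median of −0.17, against 14.6% lower and −0.03 over all. Between withdrawal and untreated islets 0 passed on either scale by limma. As deposited 6 were lower at an unadjusted p under 0.05 and 0 higher, with no share over all probe sets counted at that threshold. The smallest adjusted p between withdrawal and untreated islets belonged to Ecpas, Syvn1, Ufd1 and Uba1. Their differences were −0.44, −0.42, −0.43 and −0.38, with limma adjusted p of 0.529, 0.56, 0.585 and 0.623.

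Ngly1 and Ddi2 encode an enzyme that strips sugars from proteins leaving the endoplasmic reticulum and a protease, and both process the factor from Nfe2l1 into its active form. Ngly1 had values of 8.81, 8.70 and 8.52 in treated, 7.74, 7.67 and 7.89 in withdrawal and 8.15, 7.59 and 7.84 in untreated islets. Ddi2 had 7.21, 6.97 and 6.76 in treated, 6.21, 6.25 and 6.61 in withdrawal and 6.34, 6.25 and 6.35 in untreated islets. For both, the treated values lay above all others. Ngly1 rose by 0.82 ± 0.15 (limma adjusted p = 0.00473) and Ddi2 by 0.67 ± 0.15 (adjusted p = 0.00965) in treated islets. After quantile normalization the rises were 0.45 (adjusted p = 0.0293, called in 5 of 9 fits that left out 1 array) and 0.54 (adjusted p = 0.0144, 8 of 9 fits). After withdrawal Ngly1 differed by −0.91 ± 0.15 (adjusted p = 0.00155) and Ddi2 by −0.62 (adjusted p = 0.00688), and after quantile normalization by −0.45 (adjusted p = 0.0202) and −0.49 (adjusted p = 0.0138). Nfe2l1 itself, named after its values were seen, rose by 0.55 in treated islets (adjusted p = 0.0169) and differed by −0.76 after withdrawal (adjusted p = 0.00219), which became 0.04 (adjusted p = 0.804) and −0.12 (adjusted p = 0.38) after quantile normalization.

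Ecpas encodes a scaffold protein that binds the proteasome and tethers it to membranes and motor proteins. Its values were 7.77, 7.43 and 7.50 in treated, 6.48, 6.49 and 6.81 in withdrawal and 7.24, 6.77 and 7.10 in untreated islets, with all treated values above the rest. It differed by −0.98 ± 0.16 between withdrawal and treated islets (limma adjusted p = 0.00131), and by −0.76 after quantile normalization (adjusted p = 0.0028), passing in all 9 fits that left out 1 array. Ube2g2, a ubiquitin-conjugating enzyme of the endoplasmic reticulum pathway, had values of 7.78, 7.50 and 7.46 in treated, 6.70, 6.65 and 6.92 in withdrawal and 7.04, 6.82 and 7.05 in untreated islets. It rose by 0.61 ± 0.14 in treated islets (adjusted p = 0.00951) and differed by −0.82 ± 0.14 after withdrawal (adjusted p = 0.00144). On the quantile scale its fall was −0.59 (adjusted p = 0.00338, 9 of 9 fits).

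Vcp, the ATPase that pulls ubiquitinated proteins out of membranes, had the largest fall of the list as deposited, from 10.96, 10.41 and 10.54 in treated to 9.55, 9.49 and 9.78 in withdrawal islets. This was −1.03 ± 0.17 as deposited (limma adjusted p = 0.00143) and −0.27 after quantile normalization (adjusted p = 0.0414, called in 0 of 9 fits that left out 1 array). Sem1, a small subunit of the regulatory particle whose symbol the name rule does not catch, had values of 10.04, 9.46 and 9.59 in treated, 8.78, 8.81 and 8.94 in withdrawal and 8.80, 8.53 and 9.17 in untreated islets. It rose by 0.86 ± 0.18 in treated islets (adjusted p = 0.0078), and by 0.35 after quantile normalization, which did not pass (adjusted p = 0.0637). Of 7 beta cell markers tested, 3 rose in treated relative to untreated islets and 4 fell after withdrawal as deposited. Over all probe sets 20.9% were higher and 32.6% lower. These markers are bright, and in the brightest decile those shares were 54.5% and 78.7%. After quantile normalization 0 rose in treated islets and 3 fell after withdrawal, against 7.75% and 14.6% over all. The part of beta cells in the values of the pathway was not tested.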

How the data were processed

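The 9 arrays of islet RNA were analysed from the deposited table of log2 values. The authors' tools were RMA and MAS5, per the submitters' processing notes; their roles and versions are not given in the sources used here. The table held 31099 probe sets, of which 57 controls were left out. Names came from the platform annotation, updated through the RefSeq gene table of GRCr8. The lowest 33.3% of probe sets by mean were left out and 20695 tested with limma 3.58.1 in R 4.3.3 (lmFit, eBayes, a term per group, all 9 arrays), after a test on simulated data. P-values were adjusted by Benjamini-Hochberg over all of them, and measure the spread between these samples. Quantile normalization was set beside the deposited scale for most results. The members and lists were chosen with earlier results of these data known. Named were the catalytic subunits, activators and inhibitor, the 5 largest called differences in each direction and the 4 pathway genes with the smallest p per comparison. Alternatives were cyclic loess, median centring, other filters, trend and robust fits, array weights, a replicate block, fits of 6 arrays, means over probe sets, and leaving out each array. The number of arrays, not read depth, limits the precision.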

Additional observations from a re-analysis of the deposited data

How the results depend on the processing

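The counts of the 42 members and of the 30 pathway genes that passed moved as follows. For treated minus untreated islets the members' 23 calls became 2 after quantile normalization, 3 after cyclic loess (2 higher, 1 lower) and 5 with the third group left out of the fit, and the pathway's 15 became 5, 5 and 9. The share of all probe sets called higher went from 20.9% to 7.75%, 7.79% and 11.5%. For withdrawal minus treated islets the members' 36 became 7 and 7, and the pathway's 24 became 8 and 8, after quantile normalization and cyclic loess. The share of all probe sets called lower went from 32.6% to 14.6% and 12.7%. For withdrawal minus untreated islets array weights called 13 members and 12 pathway genes, against 0, and 12.1% of all probe sets as lower, against 0.155%. Over all probe sets the split of higher to lower calls moved from 4318 to 1499 as deposited to 1604 to 1954 after quantile normalization for treated minus untreated, and from 2312 to 6745 to 3011 to 3021 for withdrawal minus treated. Median centring, the filters, trend and robust fits and means over probe sets kept the members' counts within 20 to 25 and 32 to 36.

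Differences turned sign as follows, after quantile normalization and cyclic loess. For treated minus untreated these were Psmb5 (−0.11 and −0.11), Psmb7 (−0.07 and −0.05), Psmb8 (−0.03 and −0.03; −0.08 with array weights), Psme4 (−0.04 and −0.07) and Uba1 (−0.13 and −0.11). For withdrawal minus treated they were Psmb5 (0.08 and 0.09), Psmb9 (0.18 and 0.16; 0.16 with array weights), Psme1 (0.20 and 0.18), Psme2 (0.15 and 0.14) and Psme3ip1 (0.34 and 0.41). For withdrawal minus untreated they were Psma6 (0.03 and 0.03), Psmd14 (0.06 and 0.08; 0.13 as the mean over its probe sets), Psme3ip1 (0.02 and 0.03), Psmd1 (0.01, loess only), Ngly1 (0.03, loess only), Ddi2 (−0.02 with array weights) and Sem1 (−0.02 with median centring, −0.09 with array weights). Psmb8 relative to Psmb5 became 0.07 and 0.08 for treated minus untreated. Psmb10 relative to Psmb7 became 0.14 and 0.09 there and −0.12 and −0.06 for withdrawal minus treated. The cause was not tested.

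Leaving out 1 array at a time gave 3 to 30 members and 4 to 17 pathway genes for treated minus untreated, 25 to 36 and 18 to 26 for withdrawal minus treated, and 0 and 0 for withdrawal minus untreated. Over all probe sets 7.07% to 22.5% were higher in the first comparison and 20.6% to 32.9% lower in the next. The lowest count of pathway genes, 4, came without the second untreated array. After quantile normalization, an alternative chosen after seeing the data, the members' ranges were 1 to 3, 1 to 10 (1 without the second withdrawal array and 3 without the first) and 0. Of all probe sets, 2.48% to 10.5% were then higher in the first comparison and 5.42% to 16.3% lower in the next. Of the genes described one by one, some ranged across 0. For treated minus untreated, Psmb8 ranged from −0.25 to 0.42, Psmb9 from −0.04 to 0.65 and Psme3ip1 from −0.07 to 0.02. For withdrawal minus treated, Psmb8 ranged from −0.25 to 0.42 and Psmb9 from −0.36 to 0.33. Between withdrawal and untreated islets Psmd14 ran from −0.17 to 0.03, Ddi2 from −0.08 to 0.12, Ngly1 from −0.22 to 0.06 and Sem1 from −0.14 to 0.18. Psmb8 relative to Psmb5 ranged from −0.55 to −0.19, 0.59 to 0.95 and 0.35 to 0.48 for treated minus untreated, withdrawal minus treated and withdrawal minus untreated, and Psmb10 relative to Psmb7 from −0.27 to 0.10, 0.01 to 0.37 and 0.04 to 0.18.

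Same-numbered arrays did not deviate together throughout (r from −0.283 to 0.504). For number 2, r was 0.305, 0.504 and 0.221, while for numbers 1 and 3 it had either sign. Not every array correlated best with one of its own number, so the numbers were not taken to pair them. With a replicate block 28, 36 and 0 members passed for treated minus untreated, withdrawal minus treated and withdrawal minus untreated. Of all probe sets, 23% were higher in the first of these, and 33.9% and 0.232% lower in the others. The offset alternative was not run because the values are already log2, and Psmb9 relative to Psmb6 was not computed.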
